A study of Mus musculus with 8 samples.

Results

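The genes described here are RNA-binding regulators of transcript processing: the heterogeneous nuclear ribonucleoproteins (hnRNPs) and related splicing and stability factors. A list of 41 gene symbols was matched to the array's annotation, and each gene was read by the probe set with a single gene symbol that had the highest mean signal over the 8 arrays. Of the 41 genes, 39 had such a probe set, out of 18193 genes on the array that did, and all 39 passed the filter on low signal and were tested among 8883 genes. Hnrnpa3 and Rbm10 were annotated only on probe sets shared with other symbols (4 and 3 probe sets) and have no value here.

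The cells were sorted bone marrow progenitors of male mice on a mainly C576BL/6 background, spelled as in the labels. Common myeloid progenitors (CMP) can form all myeloid lineages, and granulocyte-monocyte progenitors (GMP) are their descendants restricted to granulocytes and monocytes. Both came from G0 TERTER/+ mice, the normal group, and from G4/G5 TERTER/ER mice, the telomere-dysfunctional group. TERTER is a fusion of the telomerase gene Tert with the estrogen receptor; the G0 controls carried 1 copy of it and the late-generation G4/G5 mice 2. Each of the 4 groups held 2 arrays, and each array measured a pool of cells from 4 mice, so that errors describe the spread between pools and not between animals. The RNA-binding proteins were measured as transcripts on an Affymetrix array, whose signal is a linear intensity without a count behind it, and 2 arrays a group limit the precision.

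Newly made transcripts are coated by hnRNPs in the nucleus, where these proteins favour or block splice sites, and many of them also act on RNA export, stability and translation. Their abundance, and the ratio of one to another, is known to set which exons are kept in a tissue. Several are known to lower their own transcript or that of a close relative by steering it into a form that is degraded. In blood-forming cells the family is best known from CD45, whose exons hnRNPLL silences in lymphocytes, and from leukemia, where several splicing regulators are mutated or altered.

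Defining markers separated CMP from GMP in G0. Elane, a granule protease of granulocyte progenitors, read 72.3 and 194 in G0 CMP and 1182 and 1601 in G0 GMP, and Gata1, the erythroid and megakaryocyte transcription factor, 277 and 207 against 66.9 and 44.1. Of 11 tested genes of an erythroid and megakaryocyte list, 5 passed by limma as lower in G0 GMP (10.2% of all genes) and 1 as higher (10.6%). The higher one was Tfrc, with 578 and 527 in G0 CMP and 1092 and 1007 in G0 GMP. In G4/G5 CMP Elane read 535 and 315, and over a list of granulocyte and monocyte progenitor genes (12 of 13 measured) the summed signal was 25746 to 28813, against 8382 to 16337 in G0 CMP, 35940 to 36066 in G0 GMP and 40984 to 41349 in G4/G5 GMP. Of these 12 genes 12 lay higher in G4/G5 than in G0 CMP, with a median of log2 1.07, and by limma none of the 12 passed, while 9 had an unadjusted p under 0.05. That list therefore moved with the genotype in CMP as well as with cell type. Of the B cell list 8 of 9 genes were measured and summed to 204.6 to 257.4 on the 8 arrays, most of it Cd79b (107 and 142 in G0 CMP), while Pax5, Ms4a1 and Cd79a stayed at or under 12.8. Of the T and NK cell list 7 of 9 were measured, and Cd3d, Cd3e, Cd3g and Cd4 also stayed at or under 12.8. This list summed to 52.2 to 60.2 in G0 CMP and 94.1 to 99.0 in G4/G5 CMP, and to 54.1 to 56.0 and 78.9 to 85.9 in GMP, with Thy1 at 28.5 and 33.4 against 65.7 and 58.9 in CMP. A single CMP array stood apart: over a list of maturing neutrophil genes, 13 of 16 measured, the summed signal was 63574 in G4/G5 CMP pool 1 and 339.6 in pool 2, against 375.8 to 425.3 in G0 CMP, 1570.3 to 3535 in G0 GMP and 33364 to 36576 in G4/G5 GMP. Another, G0 CMP pool 2, had a summed signal of 7652 over 11 immediate early genes, where the other arrays lay between 514.6 and 959.3. In GMP the neutrophil list moved with the genotype: 0 of its 13 genes lay below 0 for G4/G5 against G0, with a median of log2 3.45. By limma none of the 13 passed there, while 9 had an unadjusted p under 0.05 (7.87% of all genes). The ratio of the 3' to the 5' control probe set of Gapdh, a sign of RNA integrity and amplification, was 1.07 to 1.498 on the CMP arrays and 0.822 to 0.899 on the GMP arrays. It therefore moved with cell type, as did the progenitor lists. The same ratio of Actb was 2.12 and 2.81 in G0 CMP and 2.01 and 1.82 in G0 GMP. In G4/G5 it was 2.46 and 3.39 in CMP and 2.19 and 2.16 in GMP. The Actb ratio was higher in CMP within each genotype. Between the genotypes, the ranges of the Gapdh and Actb ratios overlapped in CMP. In GMP they did not, and both ratios were higher on the G4/G5 arrays. There the Gapdh ratio was 0.881 and 0.899, above the 0.822 and 0.836 of the G0 GMP arrays. The part of these ratios or lists in the values below was not tested.

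As a group these transcripts varied less across the arrays than all genes tested, a comparison not matched for signal level. The highest over the lowest signal of the 8 arrays had a median of 1.45 over the 39 genes, from 1.14 for Celf2 to 2.06 for Hnrnpul1, against a median of 1.81 over all genes tested. A ratio of at least 1.5 was seen in 18 of the 39 and in 78.2% of all genes. A ratio of at least 2 was seen in 3, namely Hnrnpul1, Tardbp and Ptbp1, and in 38.3% of all genes. On the log2 scale, the median standard error of a difference between 2 groups was 0.141 for the 39 genes and 0.192 for all genes. Smaller differences could therefore be seen for the 39 genes than for the average gene. The ratios were taken on the signal as deposited. The part of signal level in these ratios and errors was not tested, so they are not shown to be a trait of these families.

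**Figure D1:**
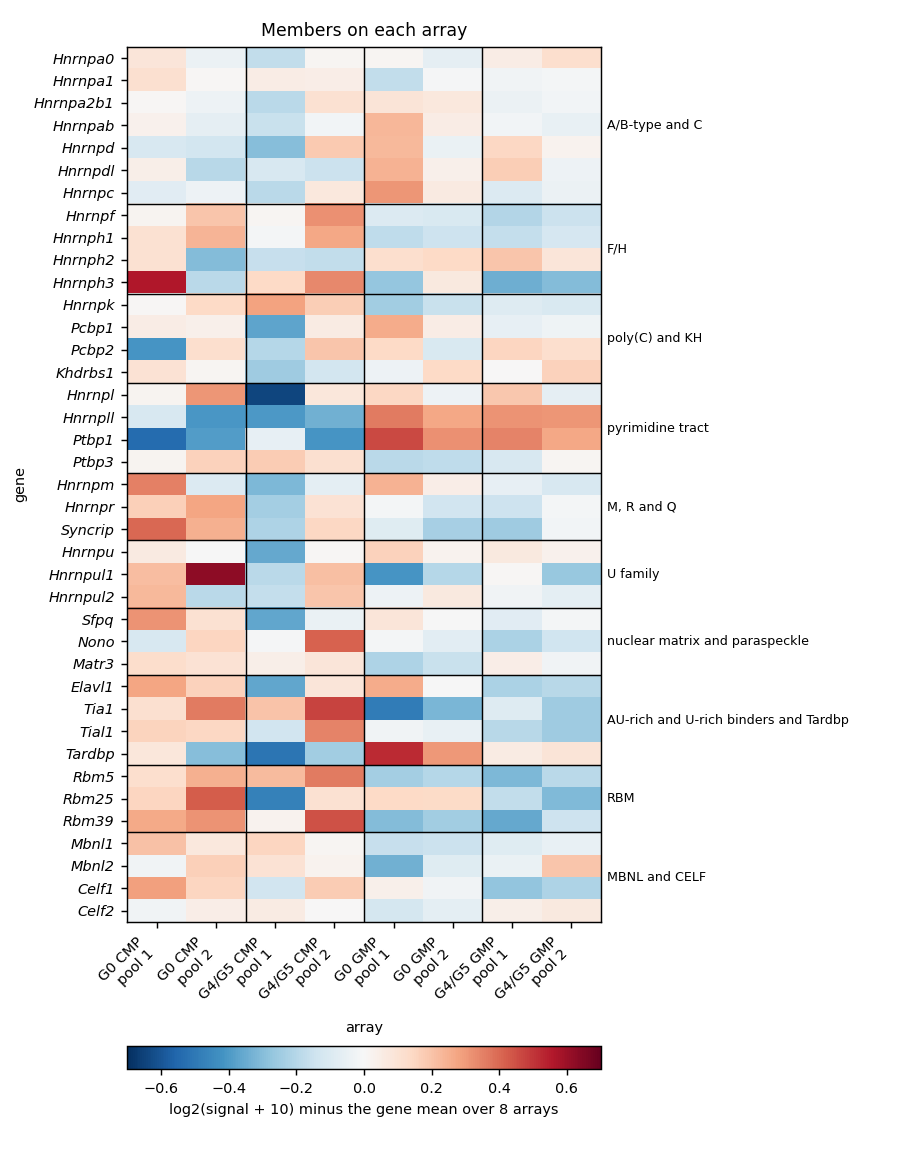
Each row is 1 of the 39 genes, grouped by family, and each column 1 of the 8 arrays; colour gives log2(signal + 10) minus the gene's own mean over the arrays, from blue (below) to red (above). Ptbp1 and Hnrnpll are blue in the CMP columns and red in the GMP columns, Tia1, Rbm39 and Rbm5 mostly the reverse, and the column of G4/G5 CMP pool 1 is blue for most genes.

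GMP were compared with CMP within each genotype, to see which of these regulators differed between the early progenitor and its granulocyte-monocyte descendant. In G0 mice Ptbp1 and Hnrnpll were higher in GMP, and Hnrnpul1, Tia1 and Rbm39 lower, by 1.48-fold to 1.81-fold. In G4/G5 mice Hnrnpll was again higher, and Rbm5 was lower. These were 5 of 39 genes in G0 at an adjusted p under 0.05 by limma, against 20.8% of all genes tested, with 2 higher (10.6% of all genes) and 3 lower (10.2%). In G4/G5 they were 2 of 39, against 10.5% of all genes, with 1 higher (4.18%) and 1 lower (6.29%). At an unadjusted p under 0.05 there were 13 of 39 in G0 (36.5% of all genes) and 10 in G4/G5 (29.4%). The median difference over the 39 genes was -0.11 on the log2 scale in G0, where that over all genes was -0.02, and -0.01 against -0.04 in G4/G5. Differences were below 0 for 26 of 39 genes in G0 (51.3% of all genes) and for 21 of 39 in G4/G5 (53.7% of all genes). Arrays are bulk samples, so fewer cells of a type and less RNA per cell cannot be told apart. The 2 cell type comparisons share no array with each other, but each shares its arrays with a comparison of genotypes.

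The largest difference was that of Ptbp1, the polypyrimidine tract-binding protein, which binds CU-rich stretches and mostly represses exons. Its signal was 684 and 757 in the G0 CMP pools and 1378 and 1246 in the G0 GMP pools. It was 956 and 745 in the G4/G5 CMP pools and 1270.4 and 1202 in the G4/G5 GMP pools. Every GMP array lay above every CMP array, and the highest CMP array was G4/G5 CMP pool 1, the CMP array with the high neutrophil signal. The difference was 1.81-fold in G0 (log2 0.86 ± 0.15 (SE), adjusted p = 0.00873). It was 1.46-fold in G4/G5 and just missed the threshold (log2 0.54 ± 0.15, adjusted p = 0.0519). The G0 call was lost on its other tested probe set, which is dim (log2 0.36, adjusted p = 0.522), and on the mean of both (log2 0.61, adjusted p = 0.104).

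Hnrnpll, a paralog of hnRNP L that silences exons in lymphocytes, was higher in GMP in both genotypes. The CMP signals were 863 and 701 (G0) and 704 and 738 (G4/G5). The GMP signals were 1203 and 1127 (G0) and 1164 and 1157 (G4/G5). The GMP arrays again all lay above the CMP arrays. The difference was log2 0.58 ± 0.13 in G0 (1.49-fold, adjusted p = 0.0207) and 0.68 ± 0.13 in G4/G5 (1.60-fold, adjusted p = 0.02). Its probe set is of the kind whose probes can match transcripts of several genes. On its other tested probe set the difference did not pass in G0 (log2 0.18, adjusted p = 0.365) or G4/G5 (log2 0.46, adjusted p = 0.0712).

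The other genes of the pyrimidine-tract group did not pass. Hnrnpl, the CA-repeat binder, read 717 and 878 in G0 CMP and 782 and 689.7 in G0 GMP, groups that overlap (log2 -0.11 ± 0.23, adjusted p = 0.762). In G4/G5 Hnrnpl lay above 0, as did Ptbp1 and Hnrnpll (log2 0.35 ± 0.23, adjusted p = 0.347). Ptbp3, a paralog of Ptbp1 known from blood cells, lay lower in GMP in both genotypes without passing (log2 -0.27 ± 0.11, adjusted p = 0.117 in G0, and -0.19 ± 0.11, adjusted p = 0.29 in G4/G5). Ptbp2, the paralog that Ptbp1 is known to keep low in many cells, is not in the list of 41 but was measured. It read 523 and 489.5 in G0 CMP and 212 and 265 in G0 GMP, 496 and 461 in G4/G5 CMP and 298 and 323 in G4/G5 GMP. Its difference was log2 -1.06 ± 0.15 in G0 (adjusted p = 0.00454) and -0.61 ± 0.15 in G4/G5 (adjusted p = 0.0392), and all GMP arrays lay below all CMP arrays.

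**Figure D2:**
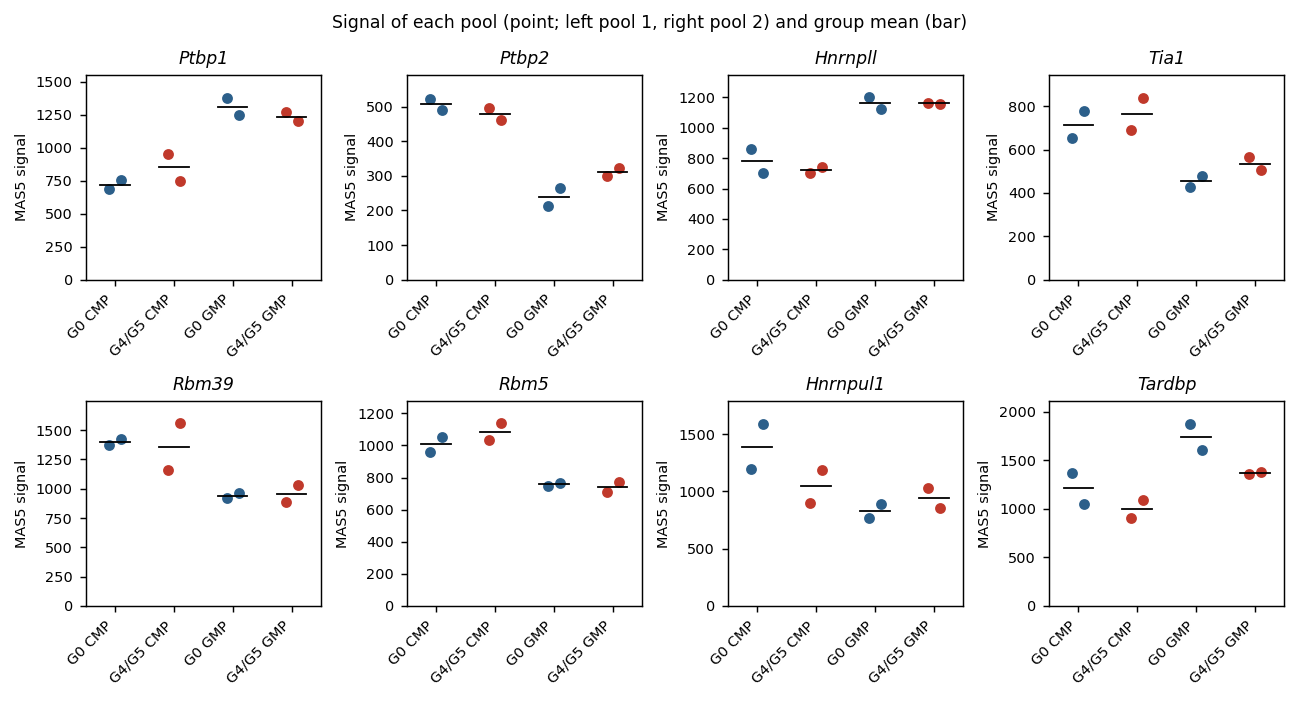
Signal (linear intensity, from 0) of each pool as a point and the group mean as a bar, in G0 CMP, G4/G5 CMP, G0 GMP and G4/G5 GMP, blue for G0 and red for G4/G5. Ptbp1 and Hnrnpll lie higher and Ptbp2, Tia1 and Rbm5 lower on every GMP array than on every CMP array, while for Hnrnpul1 the lower G4/G5 CMP point lies among the GMP points.

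Among the binders of AU-rich and U-rich RNA, Tia1 was lower in GMP. TIA1 binds U-rich RNA next to weak splice sites, where it helps their recognition, and gathers in stress granules. In G0 its signal was 652 and 777 in CMP against 426 and 480.3 in GMP. The G4/G5 pools gave 692 and 839 for CMP against 565 and 505 for GMP. The difference passed in G0 (log2 -0.64 ± 0.16, 1.56-fold lower, adjusted p = 0.0242) and missed the threshold in G4/G5 (log2 -0.50 ± 0.16, adjusted p = 0.0735). Its paralog Tial1 read 582 and 576 in G0 CMP and 513 and 503 in G0 GMP (log2 -0.19 ± 0.17, adjusted p = 0.445). Elavl1, or HuR, which protects AU-rich transcripts from decay, differed by log2 -0.09 ± 0.17 in G0 and -0.06 ± 0.17 in G4/G5, within its error. Tardbp, or TDP-43, which binds UG-rich RNA, read 1371 and 1053 in G0 CMP and 1871 and 1603 in G0 GMP. Its difference was close to the threshold in G0 (log2 0.52 ± 0.16, adjusted p = 0.0534) and not in G4/G5 (log2 0.45 ± 0.16, adjusted p = 0.11).

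The 3 measured RBM genes of the 39 lay lower in GMP in both genotypes; of those in a wider list, given at the end, Rbm15 and Rbm17 lay above 0 in both without passing (log2 0.44 ± 0.26 and 0.36 ± 0.15 in G0). Rbm39, a splicing factor related to the U2AF subunit that reads the polypyrimidine tract, had 1370.3 and 1421 in G0 CMP and 921 and 961 in G0 GMP, 1161 and 1557 in G4/G5 CMP and 885 and 1031 in G4/G5 GMP. It passed in G0 (log2 -0.56 ± 0.16, adjusted p = 0.0385) and not in G4/G5 (log2 -0.49 ± 0.16, adjusted p = 0.0824). Rbm5, a splicing regulator of apoptosis genes, had 1032 and 1139.8 in G4/G5 CMP and 709.5 and 774 in G4/G5 GMP, and fell by 0.54 on the log2 scale (SE 0.12, adjusted p = 0.0309). In G0 it had 961 and 1052 in CMP and 748 and 768 in GMP, and lay on the threshold without passing (log2 -0.40 ± 0.12, adjusted p = 0.0501). Its other 3 tested probe sets did not share the G4/G5 direction: there they lay at log2 0.45, 0.22 and 0.01, while in G0 all 4 lay below 0. On the mean of its probe sets the G4/G5 difference was log2 0.04 (adjusted p = 0.874). For both genes every GMP array lay below every CMP array. Rbm25, a regulator of Bcl-x splicing, differed by log2 -0.15 ± 0.19 in G0 and -0.06 ± 0.19 in G4/G5.

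In the U family, Hnrnpul1, a relative of the scaffold protein hnRNP U with a part in DNA repair, passed as lower in GMP in G0 and did not pass in G4/G5. It read 1193 and 1586 in G0 CMP and 768 and 891 in G0 GMP (log2 -0.73 ± 0.19, 1.65-fold lower, adjusted p = 0.0336). In G4/G5 it read 899 and 1186 in CMP and 1029.7 and 851 in GMP, groups that overlap (log2 -0.14 ± 0.19, adjusted p = 0.662). The difference between the genotypes was itself tested and did not pass (log2 0.59 ± 0.27, adjusted p = 0.994). Hnrnpu differed by log2 0.06 ± 0.14 and 0.22 ± 0.14 in the 2 genotypes, and Hnrnpul2 by less than its error in both.

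These calls rested on few arrays. Ptbp1 in G0 passed in 7 of 8 fits that each left out 1 array and was lost without G0 GMP pool 1 (adjusted p = 0.0964). Hnrnpll, Tia1 and Hnrnpul1 in G0 passed in 3 of 8: each was lost without G0 CMP pool 2, without either G0 GMP array and without either G4/G5 GMP array, with adjusted p of at most 0.164, 0.183 and 0.217. Rbm39 in G0 passed in 2 of 8, those without a G4/G5 CMP array (adjusted p of at most 0.211 in the others). In G4/G5, Hnrnpll passed in 4 of 8 and was lost without any 1 of the 4 GMP arrays (adjusted p of at most 0.179), and Rbm5 passed in 3 of 8, lost without any 1 GMP array or G4/G5 CMP pool 2 (at most 0.262). All of these kept their direction. Leaving out an array outside a comparison leaves its difference unchanged and alters only the estimate of spread and the adjusted p. In those fits the direction could not change. The count of genes passing in G0 was 9 without either G4/G5 CMP array (28.7% and 28.5% of all genes), 5 without G0 CMP pool 1 (18.2%) and 1 without G0 CMP pool 2 (11.4%). It was 0 without G0 GMP pool 1 (0.754%), 1 without G0 GMP pool 2 (4.89%) and 1 without either G4/G5 GMP array (1065 and 1069 of 8883 genes). The G4/G5 count became 8 when pool 1 of G4/G5 CMP was left out (16.1% of all genes) and 1 when pool 2 was (6.84%). It was 3 without either G0 CMP array (14.4% and 14.5%) and 0 without any 1 GMP array (0.732% to 4.44%). Quantile normalization gave 15 genes in G0, 2 higher and 13 lower, against 17.8% of all genes.

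The upstream sequences of the genes that passed were searched for short motifs. Windows of the 250 bases before the annotated start came from RefSeq on GRCm38.p6, and 36 of the 41 genes had 1 or more, 53 in all; Hnrnpll had none in the table used. They are Ptbp1 at chr10:79854182-79854431 on the + strand and Tia1 at chr6:86403969-86404218 on the + strand. On the - strand are Rbm39 at chr2:156180239-156180488 (the first of 2 windows), Rbm5 at chr9:107771003-107771252 and Hnrnpul1 at chr7:25754760-25755009. Each is printed 5′ to 3′ along its gene. Capitals mark CCAAT, the box bound by NF-Y, or its complement ATTGG, and CACGTG, the E-box, found here in the Ptbp1 window.
Ptbp1: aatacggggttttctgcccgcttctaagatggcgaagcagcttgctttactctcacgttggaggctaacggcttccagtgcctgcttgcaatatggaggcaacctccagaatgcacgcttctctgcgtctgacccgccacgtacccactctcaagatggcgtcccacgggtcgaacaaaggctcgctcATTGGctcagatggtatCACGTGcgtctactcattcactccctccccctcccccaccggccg
Tia1: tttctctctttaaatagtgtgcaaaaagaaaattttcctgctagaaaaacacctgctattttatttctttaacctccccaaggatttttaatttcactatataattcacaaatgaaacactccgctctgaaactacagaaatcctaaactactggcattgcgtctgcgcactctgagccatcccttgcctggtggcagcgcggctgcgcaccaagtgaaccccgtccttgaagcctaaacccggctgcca
Rbm39: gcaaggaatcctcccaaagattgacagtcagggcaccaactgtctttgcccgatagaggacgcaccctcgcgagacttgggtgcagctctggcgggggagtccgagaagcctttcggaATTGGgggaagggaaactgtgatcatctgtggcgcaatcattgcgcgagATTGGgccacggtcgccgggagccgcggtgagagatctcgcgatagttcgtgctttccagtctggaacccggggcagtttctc
Rbm5: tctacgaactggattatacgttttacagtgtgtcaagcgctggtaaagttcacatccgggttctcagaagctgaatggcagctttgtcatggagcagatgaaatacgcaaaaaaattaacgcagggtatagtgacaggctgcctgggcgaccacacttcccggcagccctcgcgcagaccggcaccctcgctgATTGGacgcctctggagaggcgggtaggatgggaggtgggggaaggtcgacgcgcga
Hnrnpul1: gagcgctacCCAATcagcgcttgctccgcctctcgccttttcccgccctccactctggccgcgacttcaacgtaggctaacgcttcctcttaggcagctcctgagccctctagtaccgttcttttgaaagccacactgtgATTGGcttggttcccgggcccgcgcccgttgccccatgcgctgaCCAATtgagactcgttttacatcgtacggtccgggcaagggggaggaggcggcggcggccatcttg

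Of these 5 windows, 4 hold a CCAAT box, Hnrnpul1 with 3 of them and Rbm39 with 2, and the Tia1 window holds none of the motifs searched. CCAAT on either strand was in 25 of the 53 windows of the listed genes (47.2%) and in 33.8% of 32851 RefSeq windows of that length. CACGTG was in 6 (11.3%, against 6.02%), the ETS motif CCGGAAGT in 3 (5.66%, against 2.88%) and the PU.1 motif GAGGAAGT in 2 (3.77%, against 2.44%). TATAAA was in 4 (7.55%, against 12.4%) and the NRF1 motif in 0 (against 0.782%). No motif overlaps another in its letters except where GGAAGT is shared by the ETS and PU.1 motifs. The windows were rich in G and C, with a median of 59.6% and 22 CpG, against 52.4% and 6 over all windows. The Tia1 window was the exception among those printed, with 44.0% and 8 CpG. Motif matches describe these letters and no binding was measured.

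The remaining families held no gene that passed on its chosen probe set. Among the A/B-type hnRNPs and Hnrnpc, which package nascent transcripts, 5 of 7 lay above 0 in each genotype, with G0 differences from log2 -0.15 (Hnrnpa1) to 0.24 (Hnrnpc). Of the F/H group, which binds runs of G, 3 of 4 lay below 0 in both genotypes and Hnrnph2 above. Hnrnph1 had log2 -0.33 ± 0.12 in G0 (adjusted p = 0.0906), and Hnrnph3 -0.56 ± 0.24 in G4/G5 (adjusted p = 0.162), while Hnrnph2 had 0.23 ± 0.15 and 0.31 ± 0.15. Of the poly(C) and KH-domain proteins, Hnrnpk read 4351 and 4759 in G0 CMP and 3650.1 and 3889.9 in G0 GMP, and 5258 and 4875 and 4062 and 4021 in the G4/G5 groups. Its GMP arrays all lay below its CMP arrays, and it passed in neither genotype (log2 -0.27 ± 0.10, adjusted p = 0.0987, and -0.32 ± 0.10, adjusted p = 0.0824).

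Syncrip, or hnRNP Q, which takes part in translation and RNA transport, read 1024 and 923 in G0 CMP and 730.0 and 658 in G0 GMP (log2 -0.48 ± 0.16, adjusted p = 0.064). In G4/G5 it differed by log2 -0.10 ± 0.16, with overlapping groups. Matr3, a nuclear matrix protein, had log2 -0.30 ± 0.10 in G0 (adjusted p = 0.0669) and -0.05 ± 0.10 in G4/G5. Nono, a paraspeckle protein, had -0.06 ± 0.16 in G0 and -0.38 ± 0.16 in G4/G5 (adjusted p = 0.152). The 4 MBNL and CELF genes, antagonists in developmental splicing, lay below 0 in G0, between log2 -0.29 (Mbnl1) and -0.10 (Celf2), and 2 of 4 did in G4/G5. Groups did not overlap for 8 genes higher in GMP in G0 (32.2% of all genes) and 19 lower (33.1%). The counts in G4/G5 were 8 higher (27.7%) and 13 lower (33.0%).

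**Figure D3:**
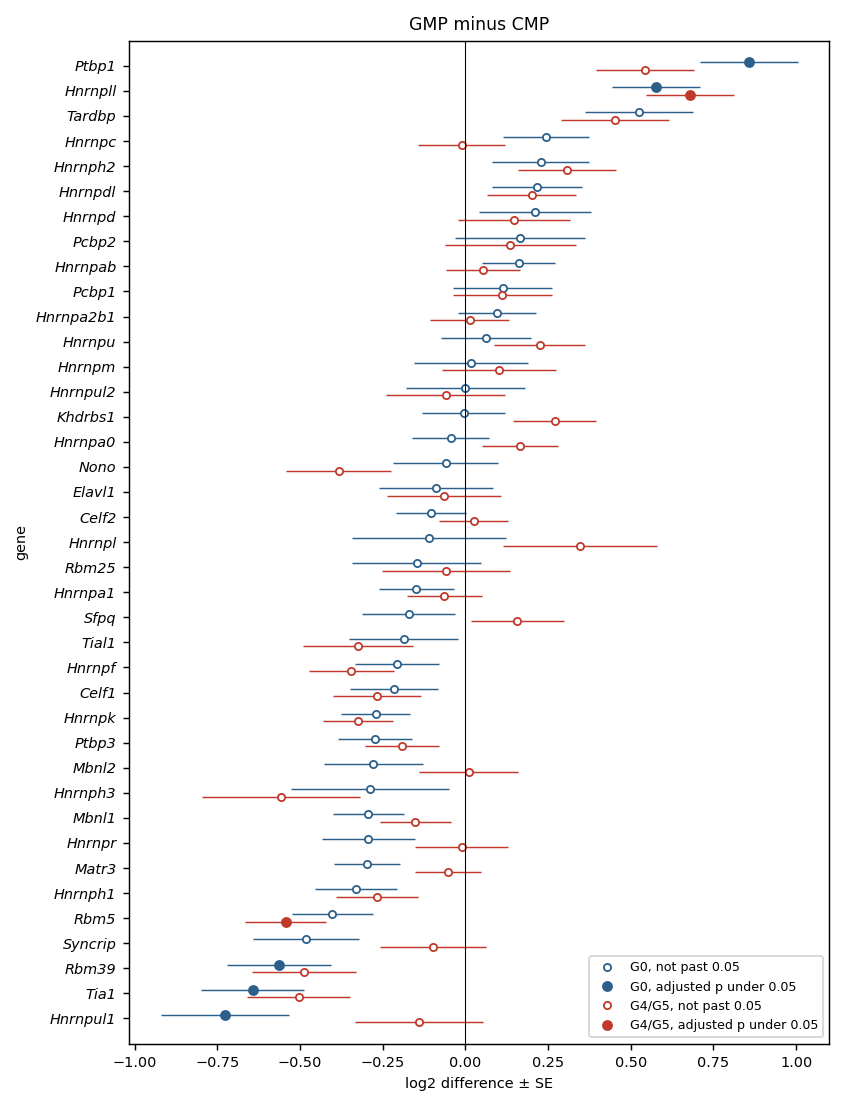
For each of the 39 genes, the log2 difference of GMP minus CMP with its standard error, blue in G0 and red in G4/G5, filled where the adjusted p was under 0.05. Filled points are Ptbp1, Hnrnpll, Rbm39, Tia1 and Hnrnpul1 in G0 and Hnrnpll and Rbm5 in G4/G5, and the open points lie between log2 -0.56 and 0.54.

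Most of these genes have several probe sets, which read different stretches or different transcripts of a gene, and among all single-symbol probe sets that passed in G0, those lower in GMP outnumbered those higher. The 39 genes had 159 such probe sets, of which 136 passed the signal filter and were tested among 14743. In G0, 24 of 136 passed (19.3% of all probe sets), 3 higher (8.98%) and 21 lower (10.3%), and they belonged to 15 genes. The count was 1 without G0 GMP pool 1 (126 of all 14743), 2 without G0 GMP pool 2 (560), 13 without either G4/G5 GMP array (1550 and 1556), 15 without G0 CMP pool 2 (1449) and 38 without either G4/G5 CMP array (4058 in each). Without G0 CMP pool 1 it was 24, 10 higher and 14 lower (2435), and with quantile normalization 36, 2 higher and 34 lower (2410). In G4/G5, 7 passed (9.14%), 2 higher (3.7%) and 5 lower (5.45%), in 7 genes. This count ran from 0 without either G4/G5 GMP array (76 and 138 of all) to 17 without G4/G5 CMP pool 1 (2104); it was 1 without either G0 GMP array (593 and 595), 4 without G4/G5 CMP pool 2 (859) and 11 without either G0 CMP array (1762 and 1768). The median difference in G0 was log2 -0.27 over the 136 and -0.05 over all probe sets. Below 0 lay 96 of 136 in G0 (54.4% of all probe sets) and 81 in G4/G5 (54.0%), and an unadjusted p under 0.05 was reached by 55 (36.0%) and 38 (27.9%). Probe sets of 1 gene are not independent, and genes with many of them weigh more in these counts: Rbm39 alone had 12 tested.

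Tia1 and Rbm39 had many probe sets of one sign. All 5 tested probe sets of Tia1 lay below 0 in both genotypes, from log2 -0.80 to -0.50 in G0, where 4 passed. The probe set 1431708_a_at of Tia1 passed in both genotypes, with 316 and 275 in G0 CMP, 166 and 173 in G0 GMP, 397 and 301 in G4/G5 CMP and 191 and 213 in G4/G5 GMP (log2 -0.76 ± 0.17 and -0.75 ± 0.17). All 12 of Rbm39 lay below 0 in G0, from log2 -0.84 to -0.15, with 5 passing, and 11 of 12 in G4/G5. Its probe set 1438420_at passed in both (log2 -0.77 ± 0.18 and -0.73 ± 0.18). Ptbp1 had a second tested probe set, 1458284_at, dim at a mean signal of 79.5, which differed by log2 0.36 ± 0.37 in G0. Hnrnpll had a second, which lay above 0 in both genotypes, at log2 0.18 and 0.46, without passing.

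In other genes the probe sets disagreed. Syncrip was read lower in GMP by its brightest probe set, as given above, but 1422768_at gave the opposite. It read 316 and 236 (G0) and 212 and 208 (G4/G5) in CMP. In GMP the pools had 502 and 436 (G0) and 452 and 375 (G4/G5). It was higher in GMP in both genotypes (log2 0.76 ± 0.18, adjusted p = 0.0233, and 0.94 ± 0.18, adjusted p = 0.0189). Tardbp had 3 probe sets above 0 in G0, at log2 0.46 to 0.52, and 2 below, 1428467_at at -0.44 ± 0.19 and 1436318_at at -0.60 ± 0.22, and none passed. The second of these read 251 and 173 in G0 CMP and 132 and 137 in G0 GMP. With these opposite signs, no direction is given here for Syncrip or Tardbp as a gene.

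Several genes that the brightest probe set did not call were lower in GMP on another. Sfpq, the partner of Nono in paraspeckles, had 987 and 1129 in G0 CMP and 647 and 536 in G0 GMP on 1436898_at, and passed in both genotypes (log2 -0.83 ± 0.16, adjusted p = 0.0109, and -0.63 ± 0.16, adjusted p = 0.0414). Its brightest probe set differed by log2 -0.17 ± 0.14 in G0. All 6 tested probe sets of Sfpq lay below 0 in G0. In G4/G5 3 lay below and 3 above, up to log2 0.51. Tial1 passed in both genotypes on 1452821_at (log2 -0.68 ± 0.16 and -0.67 ± 0.16), where it read 382 and 371 in G0 CMP and 217 and 247 in G0 GMP. Mbnl1 on 1440315_at read 252 and 298 in G0 CMP and 72.5 and 77.1 in G0 GMP (log2 -1.74 ± 0.19, adjusted p = 0.00224), and 101 and 139 in G4/G5 CMP. Celf2 on 1450069_a_at had log2 -0.86 ± 0.13 in G0 (adjusted p = 0.00623), and Hnrnpa2b1 on 1433830_at -0.68 ± 0.12 (adjusted p = 0.00943), where their brightest probe sets had -0.10 ± 0.11 and 0.09 ± 0.12. Rbm25 passed in G0 on 2 of 6 probe sets (log2 -0.61 and -0.62). Among tested probe sets in G0, 1 of 4 of Tial1, 2 of 4 of Hnrnpa2b1 and 1 of 6 of Rbm25 lay above 0. The 3' to 5' ratios given above differ between the cell types in the same comparison, and their part in differences between probe sets of 1 gene was not tested. These probe sets were named after their values were seen.

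Over the 32 genes with several tested probe sets, all lay below 0 in G0 for 12 genes, all above for 5, and signs were mixed for 15. In G4/G5 these counts were 8, 4 and 20. The shares over all genes were not counted, neither for these signs nor for genes with a probe set that passed.

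**Figure D4:**
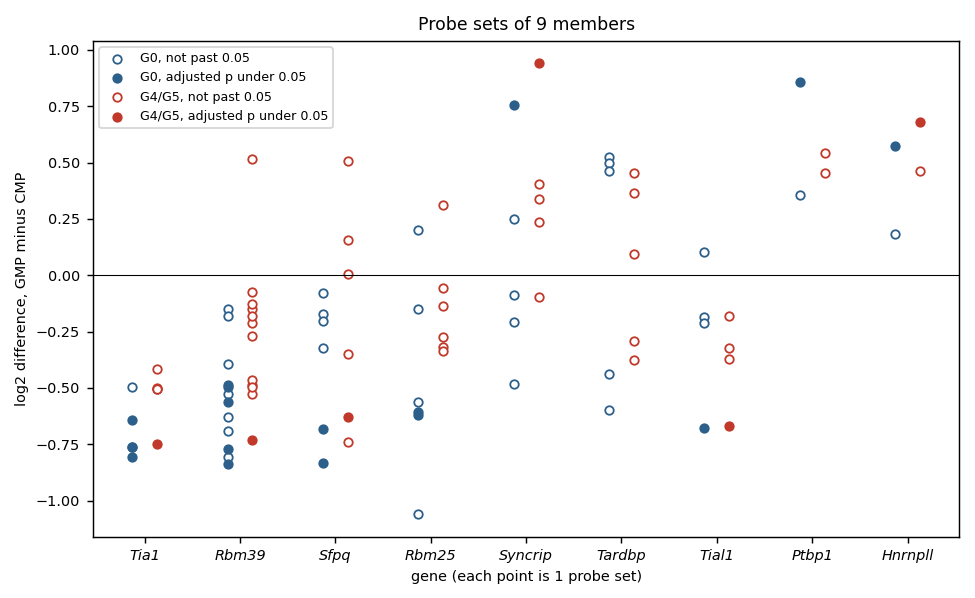
Each point is 1 tested probe set of 1 of 9 genes and gives its log2 difference of GMP minus CMP, blue in G0 and red in G4/G5, filled where the adjusted p over all probe sets was under 0.05. All points of Tia1 lie below 0 in both genotypes and all blue points of Rbm39 do, while Syncrip and Tardbp have points on both sides.

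G4/G5 was compared with G0 to see whether telomere dysfunction goes with a change in these regulators, and none of the 39 genes passed in either cell type. By limma 0 of 39 passed in CMP (0.0113% of all genes), 0 in GMP (0.0%), 0 for the mean of both (0.0338%) and 0 for the difference between the cell types (0.0%). At an unadjusted p under 0.05 there were 2 of 39 in CMP (13.4% of all genes), 0 in GMP (7.87%), 5 for the mean (17.8%) and 0 for the difference (3.97%). In CMP, 28 of 39 genes lay below 0, against 44.3% of all genes, with a median of log2 -0.05 against 0.04. In GMP, 22 of 39 did, against 49.1%, with a median of -0.01 against 0.01. For the mean it was 25 of 39, against 46.1%, and for the difference between the cell types 17, against 54.9%. Of the 136 probe sets of these genes 0 passed by limma in CMP (0.0339% of all probe sets), in GMP (0.0%), for the mean (0.0475%) or for the difference (0.0%). At an unadjusted p under 0.05 there were 23 in CMP (14.2%), 10 in GMP (7.27%), 31 for the mean (17.4%) and 6 for the difference (4.17%). Below 0 lay 106 in CMP (50.3% of all probe sets), 78 in GMP (51.3%), 93 for the mean (51.4%) and 35 for the difference (50.7%).

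The lowest values in CMP were those of Rbm25, Hnrnpl, Sfpq and Hnrnpul1. Rbm25 read 944 and 1144 in G0 CMP and 609.7 and 918 in G4/G5 CMP (log2 -0.47 ± 0.19, adjusted p = 0.36). Its GMP signals were 939 and 935 (G0) against 754 and 685 (G4/G5), with a difference of log2 -0.38 ± 0.19 (adjusted p = 0.637). Its groups did not overlap in either cell type, and all 6 of its probe sets lay below 0 in CMP. Sfpq read 2061 and 1785 in G0 CMP and 1282 and 1604 in G4/G5 CMP (log2 -0.42 ± 0.14, adjusted p = 0.312). Its G0 pools of GMP had 1757 and 1650.1 and its G4/G5 pools 1563 and 1639, which do not overlap but lie close together (log2 -0.09 ± 0.14). Hnrnpl had log2 -0.45 ± 0.23 in CMP (adjusted p = 0.438), where G4/G5 pool 1 read 449 and pool 2 747, and Hnrnpul1 -0.41 ± 0.19 (adjusted p = 0.404). The highest were Ptbp1 (log2 0.23 ± 0.15), Nono (0.18 ± 0.16), Hnrnpk (0.15 ± 0.10) and Pcbp2 (0.14 ± 0.20), a stabiliser of C-rich transcripts, with adjusted p from 0.526 to 0.792.

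In GMP the lowest besides Rbm25 were Tardbp, Elavl1 and Hnrnpc, each on its brightest probe set. For Tardbp 3 of 5 tested probe sets lay below 0 there and 2 above, 1428467_at at log2 0.30 and 1436318_at at 0.35, and for the mean of both cell types these 2 lay at 0.27 and 0.20. Elavl1 had 869 and 721 in the G0 pools against 620.0 and 632 in the G4/G5 pools of GMP (log2 -0.33 ± 0.17, adjusted p = 0.637), and 878 and 809.5 against 559 and 767 in CMP (log2 -0.36 ± 0.17, adjusted p = 0.409). Tardbp had log2 -0.34 ± 0.16 and Hnrnpc -0.26 ± 0.13 in GMP. The highest were Mbnl2 (log2 0.28 ± 0.15), Tia1 (0.24 ± 0.16), Matr3 (0.20 ± 0.10) and Hnrnpul1 (0.18 ± 0.19). For the mean of both cell types the lowest were Rbm25 (log2 -0.42 ± 0.14, adjusted p = 0.21), Elavl1 (-0.35 ± 0.12, adjusted p = 0.221), Tardbp (-0.30 ± 0.12) and Hnrnpm (-0.28 ± 0.12). The highest were Tia1 (0.17 ± 0.11), Mbnl2 (0.14 ± 0.11), Pcbp2 (0.13 ± 0.14) and Hnrnpk (0.13 ± 0.07). On their brightest probe sets, Rbm25, Elavl1 and Sfpq had the G4/G5 pools below the G0 pools in both cell types. Hnrnpk had them above, at 4351 and 4759 against 5258 and 4875 in CMP and 3650.1 and 3889.9 against 4062 and 4021 in GMP. The share of all genes that did so in both cell types was not counted. Among tested probe sets in GMP, 2 of 6 of Sfpq and 1 of 6 of Rbm25 lay above 0, and 1 of 4 of Hnrnpk below. In CMP, 1 of 6 of Sfpq lay above 0 and 2 of 4 of Hnrnpk below.

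Groups did not overlap for 8 genes lower in G4/G5 CMP (14.8% of all genes) and 1 higher (21.7%). In GMP the counts were 14 lower (26.5%) and 8 higher (28.9%). The 8 genes in CMP were Elavl1, Hnrnpr, Hnrnpul1, Khdrbs1, Matr3, Rbm25, Sfpq and Syncrip. The difference of the genotype effect between the cell types ranged from log2 -0.32 (Nono) to 0.59 (Hnrnpul1), followed at the upper end by Hnrnpl (0.46 ± 0.33), Syncrip (0.38 ± 0.23) and Sfpq (0.33 ± 0.20). At the lower end Nono was followed by Ptbp1 (-0.31 ± 0.21), Hnrnph3 (-0.27 ± 0.34) and Hnrnpc (-0.25 ± 0.18), all with adjusted p = 0.994.

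**Figure D5:**
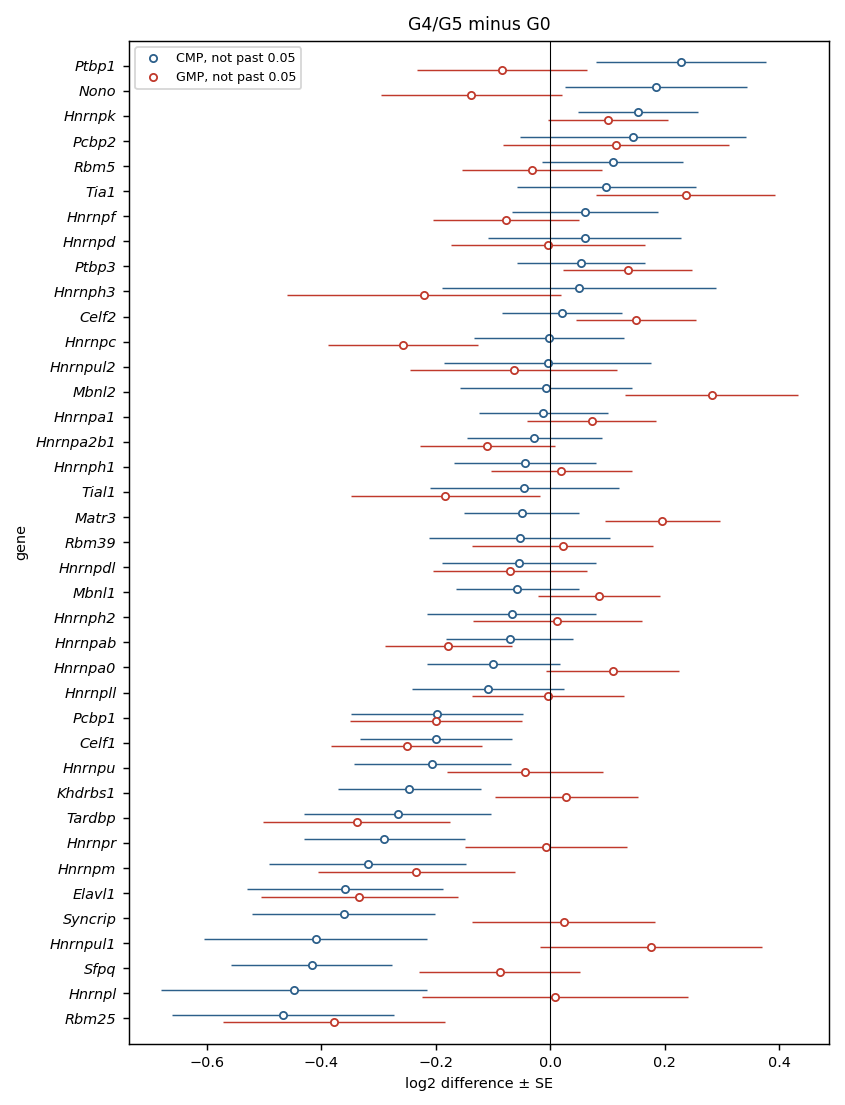
For each of the 39 genes, the log2 difference of G4/G5 minus G0 with its standard error, blue in CMP and red in GMP; open points mark that no adjusted p was under 0.05. Rbm25 and Elavl1 lie lower in both cell types, and most blue points lie below 0.

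Of the G4/G5 CMP arrays, pool 1, which had the high neutrophil signal, read lower for most of these genes. Pool 1 also had the higher summed signal over a list of eosinophil, basophil and mast cell genes (7014 against 2190 in pool 2). The same held for a list of erythroid and megakaryocyte genes (9508 against 5370). Over stem and multipotent progenitor genes it had the lower sum (4481 against 6270). Of the 39 genes, 30 read lower in pool 1 than in pool 2, against 55.5% of all genes, with a median difference of log2 -0.27, where that over all genes was -0.05. In the other groups 17 (G0 CMP, 53.2%), 16 (G0 GMP, 51.6%) and 22 (G4/G5 GMP, 52.2%) read lower in pool 1. Hnrnpl differed most, by log2 -0.72 between the pools. Without pool 1 the median difference of G4/G5 CMP from G0 CMP was log2 -0.01 over the 39 genes and 0.07 over all genes, and 0 of 39 passed. With both pools these medians were -0.05 and 0.04. Without pool 2 it was -0.18 and 0.01, and Hnrnpl and Rbm25 passed as lower (adjusted p = 0.0482 and 0.0371, with 4.78% of all genes passing); for the mean of both cell types Rbm25 and Elavl1 then passed (adjusted p = 0.0184 and 0.0363, with 7.52% of all genes). With 1 array left in that group, its spread is assumed to be that of the other groups, and these values describe that array. Whether the neutrophil or other list signals of that array, or the higher progenitor list of both G4/G5 CMP arrays, bear on these genes was not tested. Nor was this tested for the neutrophil list of the G4/G5 GMP arrays, which was higher than in G0 GMP.

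A wider list of 50 other RNA-binding regulators, chosen with earlier results of these data known, gives the surroundings. Of 35 that were tested, 1 was higher and 10 lower in G0 GMP than in G0 CMP, against 10.6% and 10.2% of all genes. Their median was log2 -0.18, against -0.02 over all genes. In G4/G5, 0 were higher and 6 lower, against 4.18% and 6.29% of all genes, with a median of -0.07 against -0.04. The higher one was Ybx1, a cold-shock domain protein that packages cytoplasmic transcripts, with 3453 and 3162 in CMP and 5049.8 and 4385 in GMP (log2 0.51 ± 0.12, adjusted p = 0.0202). Beside Ptbp2, given above, the largest falls among genes that passed were those of Zfp36l1, Zfp36l2 and Msi2. Zfp36 had log2 -1.60 ± 0.66 in G0 and did not pass (adjusted p = 0.116), with 60.7 and 411 in CMP. Zfp36l1, which marks AU-rich transcripts for decay, read 404 and 346 in G0 CMP and 114 and 94.7 in G0 GMP, and fell by 1.75 on the log2 scale (adjusted p = 0.00187) and fell by 1.94 in G4/G5 (adjusted p = 0.00129). Its paralog Zfp36l2 fell by 1.02 (adjusted p = 0.00439) and fell by 0.84 (adjusted p = 0.0118). Msi2, a translational regulator of stem and progenitor cells, fell by 0.92 (adjusted p = 0.00791) and fell by 0.71 (adjusted p = 0.0264). Between the genotypes 1 of the 35 passed, Taf15 of the FET family. It was lower in G4/G5 in CMP (log2 -2.24 ± 0.20, adjusted p = 0.0208), where 0.0113% of all genes passed, and for the mean of both cell types (0.0338%). In GMP 0 passed by limma, with 5 at an unadjusted p under 0.05 (7.87% of all genes). Among these was Taf15. Its GMP signals were 209 and 249.7 (G0) against 51.4 and 75.2 (G4/G5), a difference of log2 -1.72 ± 0.20 with adjusted p = 0.166, and its difference between the cell types did not pass (log2 0.52 ± 0.28, adjusted p = 0.994).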

How the data were processed

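Each array's deposited values are linear intensities, 1 for each probe set. They are MAS5 signals per the submitters' processing notes, brought by the authors to a target of 100 per the series text. Detection calls were not used here. Per the labels, each sample held 5000 to 20000 sorted cells and 5 to 10 ng of RNA was labelled. The table held 45101 probe sets, of which 34945 had 1 gene symbol, 932 several and 9160 none; 64 controls were left out. Median signals per array ran from 14.3 to 18.5. The reference gene table (GRCm38.p6) held the gene identifier of 34741 single-symbol probe sets and changed 0 symbols.

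The deposited intensities were taken as log2(signal + 10), which understates the change of dim genes, without further normalization. A gene was tested where its probe set reached 50 on at least 2 arrays. With limma 3.58.1 in R 4.3.3, a model with a mean for each of the 4 groups was fitted to the 8 arrays (4 residual degrees of freedom; eBayes with trend). Benjamini-Hochberg adjustment covered all genes tested, at a threshold of 0.05. Every adjusted p is from limma; probe sets were adjusted over all 14743 tested. The script was tested on simulated data. There were 6 comparisons: the genotypes in CMP, in GMP, their mean and their difference, and the cell types in each genotype.

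The series text pairs G0 and G4/G5 pools by number within each cell type. Deviations from the group means of same-numbered pools correlated over genes at 0.247 in CMP and 0.139 in GMP, but with 2 pairs each the numbers were not taken as a pairing. The sources used here do not say whether same-numbered CMP and GMP pools shared mice.

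The genes, their families and the wider list were chosen with earlier results of these data known, so no test was made over a list. Every gene of the 39 past the threshold is named; where none passed, the 4 highest and 4 lowest are given; of the wider list, at most the 4 largest each way in the report. Promoter windows came from RefSeq, searched on both strands. Python 3.11.15 with pandas 2.3.3 and matplotlib 3.10.9 served for tables and plots. Alternatives were other pseudocounts, filters, normalizations, probe set choices, spread estimates and blocks, and each array left out.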

Additional observations from a re-analysis of the deposited data

How the results depend on the processing

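The count of the 39 genes that passed moved with the processing in both cell type comparisons. In G0 it was 5 and became 3 with no signal filter (6.78% of all genes), 15 with quantile normalization (17.8%), 9 with the mean of a gene's probe sets (20.9%) and 3 without the intensity trend (18.4%), where 20.8% of all genes passed as reported, and 0 to 9 when 1 array was left out. In G4/G5 it was 2 and became 1 with no signal filter (2.7% of all genes), 1 without the trend (8.57%) and 1 on the 4 arrays of the comparison alone (4.82%), against 10.5% as reported, and 0 to 8 when 1 array was left out. Leaving out probe sets that can match several transcripts left 38 of the 39 genes. It gave 7 in G0 (20.7% of all genes), 0 higher and 7 lower. In G4/G5 it gave 3 (9.12% of all genes), 0 higher and 3 lower. The mean of probe sets gave 0 higher and 9 lower in G0. Ptbp1 in G0 passed in 16 of 19 alternatives, Tia1 in 14, Hnrnpll and Hnrnpul1 in 12 and Rbm39 in 11; in G4/G5 Hnrnpll passed in 14 and Rbm5 in 10. Between the genotypes the count stayed at 0 in GMP and for the difference; in CMP and for the mean it ran from 0 to 2 over the fits that left out 1 array and was 0 otherwise. With 2 arrays a group, differences of several standard errors between the genotypes could miss the threshold, as those of Sfpq in CMP and Taf15 in GMP did.

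The pool number as a replicate block changed no call between the genotypes (0 genes of the 39 with the block within cell type or shared). Shared across groups it gave 6 in G0 (23.6% of all genes), with Rbm5 added, and 4 in G4/G5 (13.8%), with Ptbp1 and Rbm39 added. Over all genes, the block within cell type passed 2 in CMP and 1 for the mean, and the shared block 3 in CMP. Same-numbered pools correlated at 0.217 between G0 CMP and G0 GMP and at -0.229 between G4/G5 CMP and G0 GMP.

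Over all genes tested, 1 gene passed in CMP, and 3 with a pseudocount of 32, 4 with quantile normalization, 5 with median centring, 4 without probe sets that can match several transcripts, 3 without the trend and 0 on 4 arrays. In GMP 0 passed, and 360 on 4 arrays. For the mean 3 passed, and 1 with no filter, 6 with median centring, 6 without those probe sets and 8 with the mean of probe sets. For GMP against CMP in G4/G5, 930 passed, and 492 with no filter and 428 on 4 arrays. Leaving out 1 array gave 0 to 425 in CMP, 0 to 55 in GMP, 0 to 668 for the mean, 0 to 11 for the difference, 67 to 2549 for GMP against CMP in G0 and 65 to 1433 in G4/G5.

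Values changed sign as follows, and the cause was not tested. For G4/G5 against G0 in CMP, Hnrnpk was -0.073 with quantile normalization and -0.11 without probe sets that can match several transcripts, Nono -0.44 and Ptbp1 -0.49 without those probe sets, and Nono -0.037 and Ptbp1 -0.13 with the mean of probe sets. Leaving out 1 array gave -0.027 (G4/G5 CMP pool 2) to 0.40 for Nono and -0.12 (G0 CMP pool 1) to 0.41 for Pcbp2, and -0.051 for Pcbp2 on omitting pool 2 of G4/G5 CMP. Without those probe sets Tardbp was 0.30 in GMP, 0.27 for the mean, -0.44 for GMP against CMP in G0 and -0.37 in G4/G5, and the difference of the genotype effect was 0.12 for Nono and 0.100 for Ptbp1. Leaving out 1 array gave -0.0031 (G0 CMP pool 1) to 0.26 for Pcbp2 for the mean, -0.64 to 0.102 (G0 CMP pool 2) for Hnrnph3 for the difference, and -0.015 (G4/G5 CMP pool 1) to 0.71 for Hnrnpl for GMP against CMP in G4/G5. With the mean of probe sets Syncrip in G0 was 0.046. Rbm5 in G4/G5, a call, was then 0.036 and no longer passed.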

Other observations

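Further RNA-binding genes of the wider list were lower in GMP. The RNA helicase Ddx5, a cofactor of splicing and transcription, had log2 -0.53 ± 0.12 in G0 (adjusted p = 0.021) and -0.51 ± 0.12 in G4/G5 (adjusted p = 0.0368) by limma. Its paralog Ddx17 had -0.55 ± 0.16 (adjusted p = 0.0406) and -0.62 ± 0.16 (adjusted p = 0.0429). In G0, Pum2, a translational repressor, had log2 -0.58 ± 0.12, Zfr -0.59 ± 0.17, Rbmx, an X-linked hnRNP, -0.58 ± 0.17, and Cpsf6, a 3' end processing factor, -0.50 ± 0.13. In G4/G5 these last 4 did not pass. The difference of the genotype effect between the cell types passed by limma for 0 of the 35 genes tested. An unadjusted p under 0.05 was reached there by 1 of them, against 3.97% of all genes. Apart from Ptbp2, Zfp36l1, Zfp36l2, Msi2 and Ybx1, the genes named in this paragraph are all of that list that passed in G0.

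The lowest probe set differences of G4/G5 against G0 in CMP were in genes with no call. They were Hnrnpr on 1452030_a_at (log2 -1.49 ± 0.25, adjusted p = 0.111) and Hnrnpab on 1426114_at (-1.33 ± 0.51, adjusted p = 0.297). The Hnrnpab value rests on G0 CMP pool 1: the G0 pools read 1319.9 and 324 and the G4/G5 pools 218 and 298. Next were Syncrip on 1450743_s_at (-1.22 ± 0.29, adjusted p = 0.181) and 1422769_at (-1.21 ± 0.29, adjusted p = 0.181) and Mbnl1 on 1440315_at (-1.14 ± 0.19, adjusted p = 0.111). Hnrnpr on that probe set read 400.5 and 253 in G0 CMP and 102 and 112 in G4/G5 CMP, and 254 and 215 and 211 and 144 in the GMP groups. Syncrip on 1422769_at read 390.1 and 221 and 113 and 131 in the CMP groups. These probe sets were chosen after their values were seen.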
